A study of Mus musculus with 6 samples.

Results

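The imprinted genes described here are 40 mouse genes chosen by name from the known imprinted loci. No measured value enters the rule, though earlier results of these data were known when the names were chosen. Of the 40 genes, 39 had a row among the 43629 genes counted in each heart, 26 were above the count floor and entered the test, in which 13092 genes were tested, and 13 had too few counts. The remaining name, Dcn-as, matched no gene symbol and no value is given for it. The RNA came from left ventricles of 6 male F1 mice of the CD-1 strain, taken when the mice were 1 year old. Their dams had received an intraperitoneal injection each day, of normal saline in the vehicle group (n = 3) or of caffeine at 20 mg/kg in the caffeine-treated group (n = 3), starting at E6.5. The exposure ended at E9.5 in the study's design, whereas another field of the sample labels ends it at E10.5. The sources do not say which dam each sequenced mouse came from, so p-values take the hearts as independent and may measure in part the spread within litters.

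An imprinted gene is transcribed mainly from the copy inherited from 1 parent, because DNA methylation laid down in the egg or the sperm marks the other copy or a control region nearby. The marks are set in the germline and kept through the wave of demethylation after fertilization, and many imprinted genes steer growth of the fetus and placenta. Maternally expressed members such as Igf2r, Grb10, Cdkn1c and H19 mostly restrain growth, and paternally expressed members such as Igf2, Mest, Peg3 and Dlk1 mostly promote it. Counts per gene do not separate the parental copies, so the values below are total levels of each RNA and say nothing of which copy it came from. For some members imprinting is limited to certain tissues or transcripts, as for Ube3a in neurons.

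Promoter sequences are shown for 5 members. They are the 4 whose hearts did not overlap between the treatments (Snrpn, Ube3a, Asb4 and Nnat) and Mest, which had the highest fold change. Each sequence is the stretch of 250 bases before a transcription start in RefSeq (GRCm38.p6), printed 5′ to 3′ on the strand of the gene. CG dinucleotides, the sites of DNA methylation, are in capitals. Whether these stretches lie in a region that carries an imprint was not examined. The windows are chr7:60005200-60005449 on the minus strand for Snrpn (1 of the 4 starts listed for it), chr7:59228500-59228749 on the plus strand for Ube3a, chr6:5383136-5383385 on the plus strand for Asb4 (1 of 2 starts), chr2:157559828-157560077 on the plus strand for Nnat and chr6:30737800-30738049 on the plus strand for Mest (1 of 3 starts).
Snrpn: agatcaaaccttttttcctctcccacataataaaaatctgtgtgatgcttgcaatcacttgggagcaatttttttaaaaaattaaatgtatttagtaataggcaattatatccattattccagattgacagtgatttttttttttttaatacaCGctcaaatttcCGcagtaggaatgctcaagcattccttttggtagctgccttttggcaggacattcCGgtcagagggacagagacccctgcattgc
Ube3a: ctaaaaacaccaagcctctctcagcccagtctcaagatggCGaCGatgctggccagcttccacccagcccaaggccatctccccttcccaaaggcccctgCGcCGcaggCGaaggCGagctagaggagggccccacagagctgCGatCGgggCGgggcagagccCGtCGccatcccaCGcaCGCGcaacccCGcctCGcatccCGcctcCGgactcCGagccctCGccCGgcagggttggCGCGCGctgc
Asb4: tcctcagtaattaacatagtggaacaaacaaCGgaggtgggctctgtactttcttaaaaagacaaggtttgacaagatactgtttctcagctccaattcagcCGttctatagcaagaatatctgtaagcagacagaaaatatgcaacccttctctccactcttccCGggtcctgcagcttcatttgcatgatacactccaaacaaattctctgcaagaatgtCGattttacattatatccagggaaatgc
Nnat: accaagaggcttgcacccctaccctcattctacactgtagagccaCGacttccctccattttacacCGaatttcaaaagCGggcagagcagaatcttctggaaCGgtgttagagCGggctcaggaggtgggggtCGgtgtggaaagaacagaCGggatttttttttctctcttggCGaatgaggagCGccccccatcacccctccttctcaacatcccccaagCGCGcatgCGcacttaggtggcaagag
Mest: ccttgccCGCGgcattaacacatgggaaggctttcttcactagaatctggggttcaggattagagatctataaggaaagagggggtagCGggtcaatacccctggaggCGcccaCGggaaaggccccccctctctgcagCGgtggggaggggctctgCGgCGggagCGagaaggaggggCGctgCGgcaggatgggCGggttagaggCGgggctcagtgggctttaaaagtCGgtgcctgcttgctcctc

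The Ube3a window held 24 CG dinucleotides, the Mest window 14, the Nnat window 12, the Asb4 window 4 and the Snrpn window 3. Over the 32851 promoter windows of the same length the median was 6, and it was 9.0 over the 46 windows of the 33 members with an entry. As many CG dinucleotides as in the Ube3a window occurred in 12.0% of all windows, and as many as in the Snrpn window in 71.0%. The letters TGCCGC, the motif of the imprint-keeping zinc finger protein ZFP57, were searched on both strands. They occurred in the Mest window 2 times and in none of the other 4, in 8 of the 46 member windows (17.4%) and in 8.68% of all windows. The 8 windows belong to 7 genes, since a pair of nearly identical Mest windows holds the same sites. The remaining Mest window held 7 CG dinucleotides and 0 such sites. The other Asb4 window held 8 CG dinucleotides and the other Snrpn windows 2 to 4. DNA methylation was not measured in these samples, and the letters describe the windows only.

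Total counts ran from 9228359 to 10483101 in the vehicle group and from 7613011 to 9153997 in the caffeine-treated group, with no overlap. Levels are therefore given in CPM, each count divided by the effective library size (the total times a TMM factor of 0.94 to 1.072). By counting error alone, a count of 0 allows up to 3 counts. Divided by the total count without the TMM factor, that is 0.286 to 0.394 CPM depending on the heart. The hearts carried the cardiomyocyte marker genes at high levels, and markers of atrial tissue summed to 4.20 to 5.19 CPM over all 6 hearts. The summed fibroblast markers were higher in every caffeine-treated heart (1705 to 2039 CPM) than in every vehicle heart (1335 to 1619 CPM), with 10 of the 10 markers higher on average. The summed mural cell markers were also higher without overlap (3968 to 4079 against 3367 to 3854 CPM), with 5 of 8 markers higher on average. Most of this sum was Des (2708, 2826 and 2872 against 2670, 2209 and 2491 CPM), while Acta2, Myh11 and Pdgfrb were lower on average. The higher sum therefore says little of the mural cell markers as a group. All 8 macrophage markers were higher on average (median log2 fold change 0.41), but their sums overlapped (241.4 to 475.8 against 203.6 to 317.2 CPM). None of these markers passed the thresholds, and their part in the values of the imprinted genes was not tested. In bulk RNA, fewer cells of a type and less RNA per cell cannot be told apart.

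The imprinted genes summed to a slightly lower level in the caffeine-treated hearts. Their summed level was 863, 876 and 849 CPM in the vehicle hearts (replicates 1 to 3) and 830, 845 and 839 CPM in the caffeine-treated hearts. Every caffeine-treated heart was below every vehicle heart, and the nearest hearts of the 2 treatments, vehicle replicate 3 and caffeine replicate 2, differed by less than the vehicle hearts did among themselves. The largest falls in mean CPM were those of Snrpn (33.9 to 24.1), Ube3a (97.7 to 89.1) and Igf2r (227 to 219.5), while Impact rose from 35.2 to 44.0. Of the 26 members tested 12 were higher and 14 lower (median log2 fold change −0.01), so the lower sum rests on a few genes. The members made up 0.0779% to 0.0911% of all counts, and 34 members had a count in each heart, except caffeine replicate 2 with 35. The median coefficient of variation between hearts of 1 treatment was 13.3% for the vehicle group and 12.5% for the caffeine-treated group over the 26 genes tested. It was highest for Meg3, a long noncoding RNA of the Dlk1-Dio3 region, at 53.7% and 71.1%.

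None of the 26 imprinted genes tested was differentially expressed. Calls were made at an adjusted p below 0.05 and a fold change above 1.5 in edgeR's quasi-likelihood test with Benjamini-Hochberg adjustment over all genes, and 14 of the 13092 genes met them (0.107%), 0.0840% higher and 0.0229% lower in the caffeine-treated hearts. Of the members 12 had a higher and 14 a lower fitted mean in the caffeine-treated hearts, against 50.2% and 49.8% of all genes. Their log2 fold changes (caffeine minus vehicle) ran from −0.49 for Snrpn to 0.50 for Mest with a median of −0.01, beside a median of 0.00 over all genes. The median absolute log2 fold change was 0.11, and 0.12 over all genes. At an unadjusted p below 0.05 there were 2 members, Snrpn and Impact, where 8.82% of all genes tested were below it. No member passed the thresholds with edgeR's exact test (0.718% of all genes did), its likelihood ratio test (0.771%), DESeq2 (0.512%) or limma-voom (0.107%) either.

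**Figure D1:**
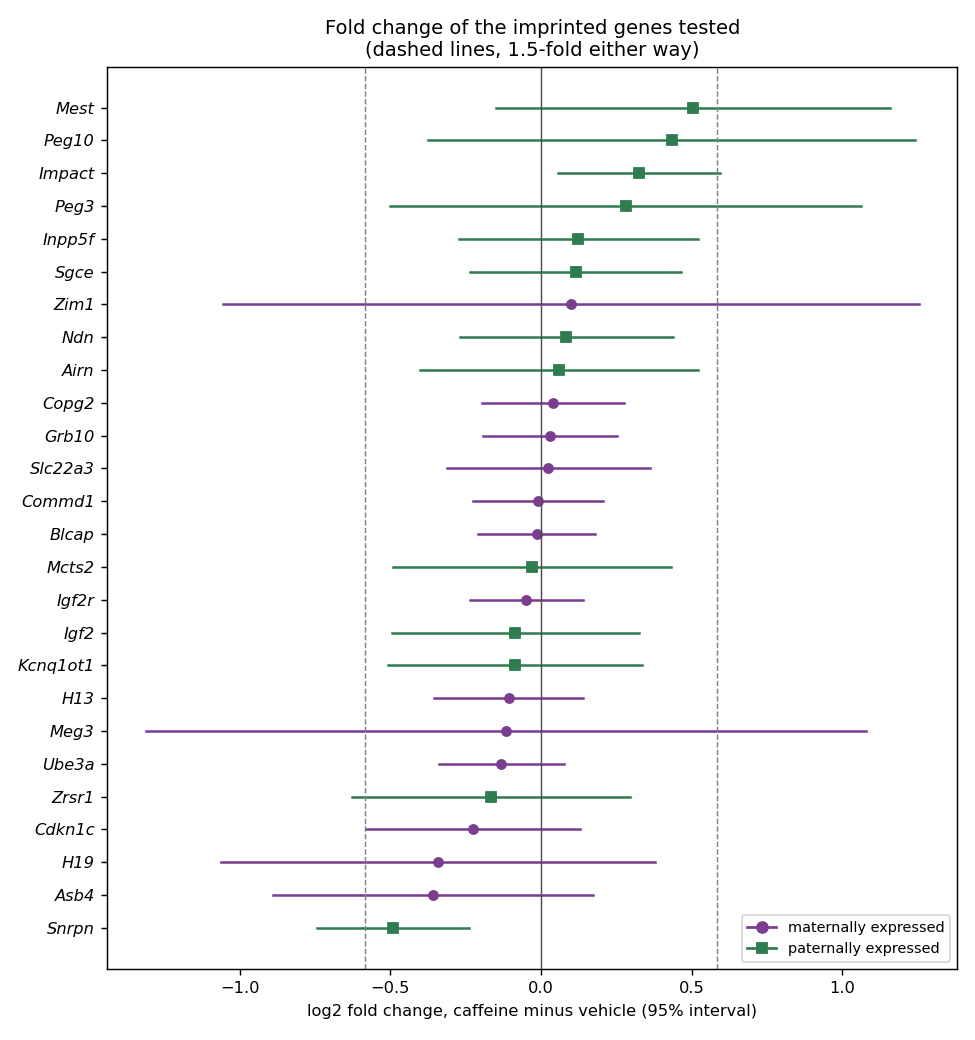
Log2 fold change (caffeine minus vehicle, horizontal axis) of the 26 imprinted genes tested, ordered by value, with lines for the 95% interval of edgeR's quasi-likelihood fit; circles are maternally and squares paternally expressed genes, and dashed lines stand at 1.5-fold. Most points lie near 0, from −0.49 for Snrpn to 0.50 for Mest, and the intervals of Snrpn and Impact alone leave out 0.

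How closely a change was bounded depended on the level of the gene. The 95% interval of the fold change lay wholly within 1.5-fold either way for 16 of the 26 members, and for 63.0% of all genes tested. Among the 11 members above 20 CPM in the vehicle hearts this held for 9, among the 11 members from 5 to 20 CPM for 7, and among the 4 below 5 CPM for 0. For Igf2r the interval was −0.24 to 0.14 on the log2 scale, whereas for Meg3 it was −1.31 to 1.08. The interval of Meg3 thus reached well past 1.5-fold in both directions. The counts of Meg3 were low (6 to 22 a heart) and also varied most between hearts.

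Per kilobase of annotated exon, Igf2r was the most abundant member at 24.0 CPM per kb (mean of the 6 hearts, range 22.2 to 25.7), above Blcap at 19.3 (18.1 to 20.4), a gene named for bladder cancer. Grb10 (13.7, range 12.0 to 15.5), Snrpn (13.4, 11.1 to 17.5) and Cdkn1c (11.8, 9.32 to 15.8) followed, and these 3 overlapped each other. Other genes share 27.3% of the exon bases of Snrpn, so its level per kb is less certain. Near the bottom stood Kcnq1ot1 (0.138 CPM per kb), Zim1 (0.123) and Meg3 (0.0828), with overlapping ranges. Of the noncoding RNAs, H19 stood highest (4.11, 1.76 to 5.39), above Airn (2.41, 1.71 to 2.92), and their ranges overlapped.

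**Figure D2:**
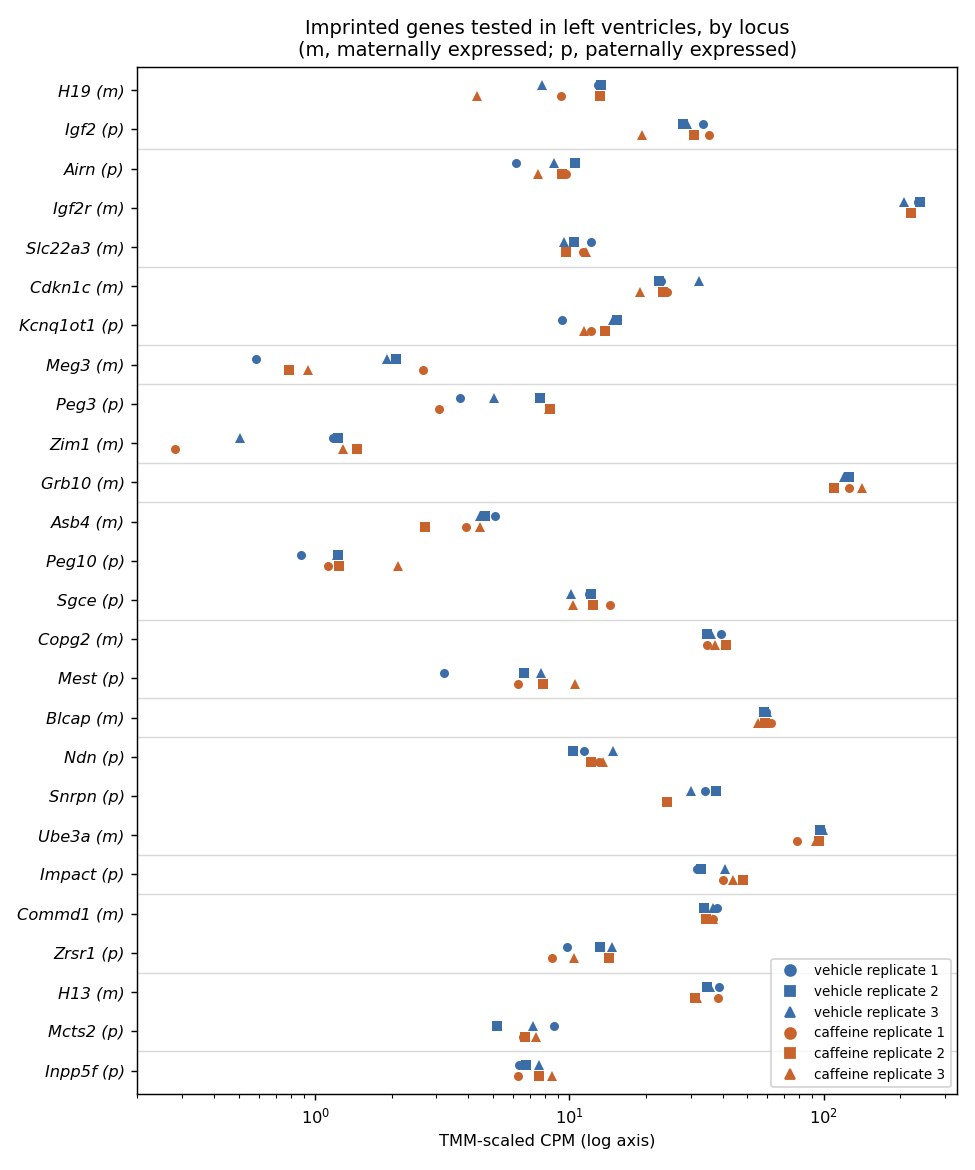
Level of each imprinted gene tested in each heart, in TMM-scaled CPM on a log axis, grouped by locus. Blue is vehicle, orange is caffeine, and the shape gives the replicate number in the sample title. Points of both treatments intermingle for most genes, while Snrpn, Ube3a and Asb4 have every caffeine-treated heart below every vehicle heart.

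The Prader-Willi and Angelman region on chromosome 7 held the member with the smallest p. Snrpn (ENSMUSG00000102252), which encodes the spliceosomal protein SmN and is paternally expressed, lies on the minus strand from 59982495 to 60140219. Its level was 34.0, 37.8 and 30.0 CPM in the vehicle hearts and 23.9, 24.2 and 24.3 CPM in the caffeine-treated hearts. The caffeine-treated hearts were nearly alike and all below the lowest vehicle heart, at 24.1 ± 0.17 CPM against 33.9 ± 3.89 CPM (SD, n = 3 each). Their counts were 171, 214 and 207, at which counting error alone is larger than that SD. The small spread is thus no measure of precision. The log2 fold change was −0.49 (SE 0.11, 95% interval −0.74 to −0.24), with unadjusted p = 0.0013 and adjusted p = 0.189 in edgeR's quasi-likelihood test, and p = 0.1 in a two-sided exact permutation test, which cannot go lower with 3 hearts per treatment.

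The adjusted p of Snrpn depended on the test. It was 0.0436 with edgeR's exact test, 0.0408 with its likelihood ratio test and 0.0104 in the quasi-likelihood fit without a filter on low counts, and it ran from 0.0104 to 0.211 over all alternatives that kept the 6 hearts. The fold change stayed under 1.5 in each of these, between −0.57 and −0.49 on the log2 scale, so the gene was called in none. Without vehicle replicate 2, the highest heart, the log2 fold change was −0.41 and the adjusted p 0.50. Exons annotated for other genes on the same stretch cover 27.3% of the exon bases of Snrpn, and reads there cannot be given to 1 gene. The overlapping genes, Snurf, which is made from the same transcript as Snrpn, and Gm38393, had 0 and 9 to 21 counts a heart.

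Ube3a, the ubiquitin ligase lost in Angelman syndrome, lies on the other strand of the region from 59228750 to 59311536. It read 97.2, 96.8 and 99.2 CPM in the vehicle hearts and 78.7, 95.4 and 93.2 CPM in the caffeine-treated hearts. The treatments did not overlap, but 2 of the caffeine-treated hearts were close to the vehicle hearts and caffeine replicate 1 was apart from them. The log2 fold change was −0.13 (SE 0.09) with an adjusted p of 0.747 in edgeR's quasi-likelihood test, and −0.05 without caffeine replicate 1. Its exons share 8.74% of their bases with Snhg14, which holds the antisense transcript of Ube3a, and the sources do not state whether reads were counted by strand. Ndn, a MAGE family protein of the same region, was at 12.2 ± 2.39 CPM in the vehicle and 12.9 ± 0.71 CPM in the caffeine-treated hearts (SD, n = 3 each), with a log2 fold change of 0.08.

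Beside Snrpn and Asb4, Ube3a was 1 of 3 members with every caffeine-treated heart below every vehicle heart, and no member was the other way round. In all genes tested, 14.2% did not overlap, 7.12% lower and 7.11% higher. Asb4, an ankyrin repeat protein of the Peg10-Sgce region on chromosome 6 (5383386 to 5433022), read 5.08, 4.64 and 4.457 CPM in the vehicle hearts and 3.92, 2.71 and 4.456 CPM in the caffeine-treated hearts. The highest caffeine-treated heart thus nearly touched the lowest vehicle heart. The log2 fold change was −0.36 (SE 0.24, 95% interval −0.89 to 0.17), with an adjusted p of 0.73 in edgeR's quasi-likelihood test, and the log2 fold change was −0.17 without caffeine replicate 2.

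**Figure D3:**
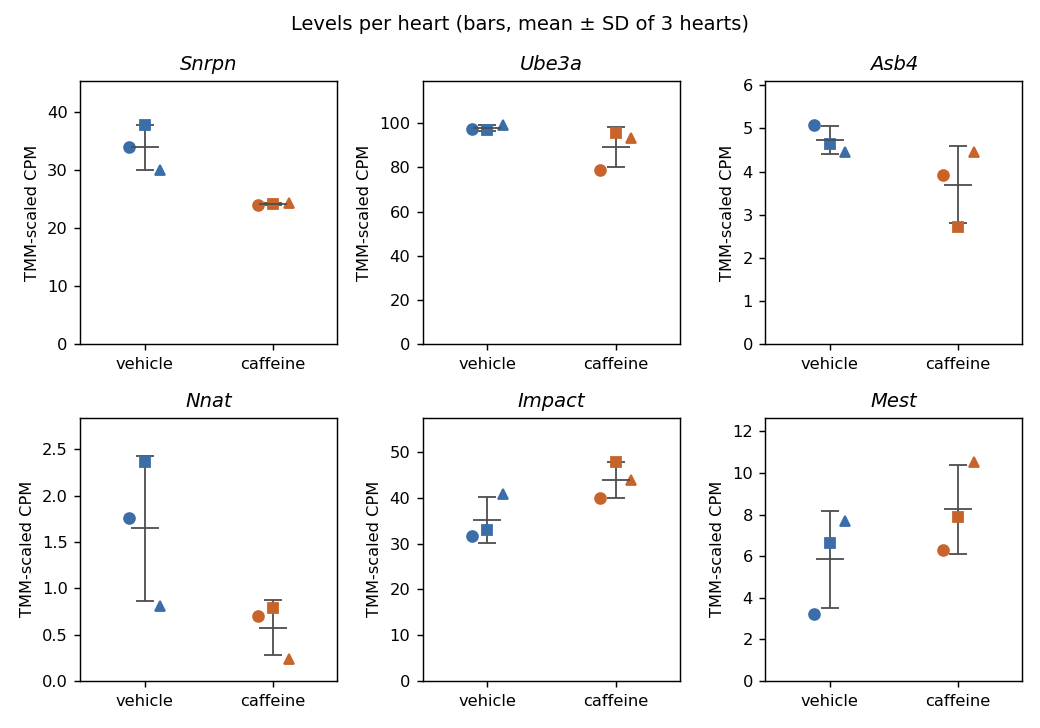
Level of 6 imprinted genes in each heart in TMM-scaled CPM, on axes that start at 0; points are hearts and bars the mean ± SD of 3 hearts. Snrpn, Ube3a, Asb4 and Nnat have all caffeine-treated hearts below all vehicle hearts, with a gap that is narrow in Ube3a, Asb4 and Nnat, and Impact and Mest overlap.

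Among the genes with a higher mean, Impact, an inhibitor of the stress kinase GCN2 on chromosome 18, had the smallest p. It read 31.8, 32.9 and 40.9 CPM in the vehicle hearts and 40.0, 48.0 and 44.0 CPM in the caffeine-treated hearts. The treatments overlapped, since vehicle replicate 3 was above caffeine replicate 1. The log2 fold change was 0.32 (SE 0.12, 95% interval 0.05 to 0.59), with unadjusted p = 0.0226 and adjusted p = 0.446 in edgeR's quasi-likelihood test.

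Mest, a paternally expressed gene of the hydrolase fold family on chromosome 6 (30723547 to 30748465), had the highest log2 fold change at 0.50 (SE 0.30, 95% interval −0.15 to 1.16). Its level was 3.22, 6.62 and 7.70 CPM in the vehicle hearts and 6.30, 7.90 and 10.6 CPM in the caffeine-treated hearts. The treatments overlapped, and vehicle replicate 1 was less than any other heart. Without that heart the log2 fold change was 0.21, below those of Peg10 (0.29) and Impact (0.26) in the same fit, so the rank of Mest rested on it. With all hearts the adjusted p was 0.676 in edgeR's quasi-likelihood test. Copg2, a coatomer subunit whose gene ends within Mest on the opposite strand, was at 36.7 ± 2.55 and 37.7 ± 3.33 CPM (SD, n = 3 each; log2 fold change 0.04). The genes share 23.1% of the exon bases of Mest and 17.8% of those of Copg2.

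The growth axis of Igf2 showed no change past the test. Igf2, the fetal growth factor, read 33.5, 28.0 and 29.0 CPM in the vehicle hearts and 35.3, 30.9 and 19.3 CPM in the caffeine-treated hearts, with the highest and the lowest heart both in the caffeine-treated group (log2 fold change −0.09). H19, the noncoding RNA that shares enhancers with Igf2, read 12.9, 13.2 and 7.80 CPM against 9.24, 13.2 and 4.34 CPM (log2 fold change −0.34, 95% interval −1.06 to 0.38). Caffeine replicate 3 was the lowest heart for both genes, and the log2 fold change of H19 was −0.0024 without it and −0.76 without caffeine replicate 2. Igf2r, the receptor that takes IGF2 to the lysosome, was at 227 ± 17.6 CPM in the vehicle and 219.5 ± 2.02 CPM in the caffeine-treated hearts (SD, n = 3 each; log2 fold change −0.05). Airn, the noncoding RNA that silences Igf2r on the paternal copy and crosses its start on the other strand, had a log2 fold change of 0.06, and Slc22a3, an organic cation transporter of the same locus, of 0.02.

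The members that restrain growth showed no change past the test either. Grb10, an adapter that dampens insulin and IGF1 receptor signalling, was at 123 ± 2.82 CPM in the vehicle and 125 ± 15.9 CPM in the caffeine-treated hearts (SD, n = 3 each; log2 fold change 0.03, 95% interval −0.19 to 0.25). Cdkn1c, the cyclin-dependent kinase inhibitor p57, read 22.9, 22.5 and 32.2 CPM in the vehicle hearts and 24.1, 23.3 and 19 CPM in the caffeine-treated hearts. Vehicle replicate 3 was the highest and caffeine replicate 3 the lowest, and the others lay close together (log2 fold change −0.23, 95% interval −0.58 to 0.13). Without vehicle replicate 3 the log2 fold change was −0.04. Kcnq1ot1, the noncoding RNA that silences the Cdkn1c region on the paternal copy and lies within Kcnq1, had a log2 fold change of −0.09.

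None of the remaining members passed the test. Peg3, a zinc finger protein, had a log2 fold change of 0.28 and Zim1, its maternally expressed zinc finger neighbour, one of 0.10, both with intervals that reach beyond 1.5-fold. That of Peg3 was 0.07 without vehicle replicate 1 and 0.60 without vehicle replicate 2. Peg10, derived from a retrotransposon, had a log2 fold change of 0.43 from 34 counts in the vehicle and 37 in the caffeine-treated hearts, and it was 0.10 without caffeine replicate 3. Sgce, the epsilon-sarcoglycan, had one of 0.12. Log2 fold changes were 0.12 for the phosphoinositide phosphatase Inpp5f, −0.01 for Blcap, −0.01 for Commd1, a copper transport factor, and −0.16 for Zrsr1, a splicing factor retrogene inside Commd1. H13, the signal peptide peptidase, had a log2 fold change of −0.11, Mcts2, the retrogene inside it, −0.03, and Meg3 −0.12. Of the 13 maternally expressed genes tested 4 had a higher and 9 a lower mean (median log2 fold change −0.05). Of the 13 paternally expressed genes 8 were higher and 5 lower (median 0.08). These labels are the known imprint of each gene, and parental expression was not measured in these hearts.

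At 9 loci a gene listed as maternally expressed and a gene listed as paternally expressed were both tested. The log2 ratio of their counts was compared, which needs no scaling between libraries and does not measure the parental copies. The treatments did not overlap at 1 of the 9 pairs, Asb4/Peg10. Its log2 ratio was 2.47, 1.87 and 1.83 in the vehicle hearts and 1.75, 1.09 and 1.06 in the caffeine-treated hearts, a difference of −0.76 (two-sided exact permutation test, p = 0.1). Peg10 had 8 to 18 counts a heart, so this ratio rests on few reads. For Ube3a/Snrpn the log2 ratio was 1.53 ± 0.18 in the vehicle and 1.88 ± 0.14 in the caffeine-treated hearts (SD, n = 3 each). These overlapped, because vehicle replicate 3 (1.724) was above caffeine replicate 1 (1.714), and the exact permutation test gave p = 0.2. The difference was −0.52 for Copg2/Mest, but −0.09 without vehicle replicate 1. It was −0.32 for H19/Igf2 (−0.59 to −0.13 with 1 heart left out) and −0.29 for Zim1/Peg3. It was 0.18 for Commd1/Zrsr1, −0.16 for Cdkn1c/Kcnq1ot1, −0.14 for Igf2r/Airn and −0.11 for H13/Mcts2. All 9 adjusted p-values were 0.7 in the exact permutation test, where 3 hearts against 3 cannot give an unadjusted p below 0.1.

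**Figure D4:**
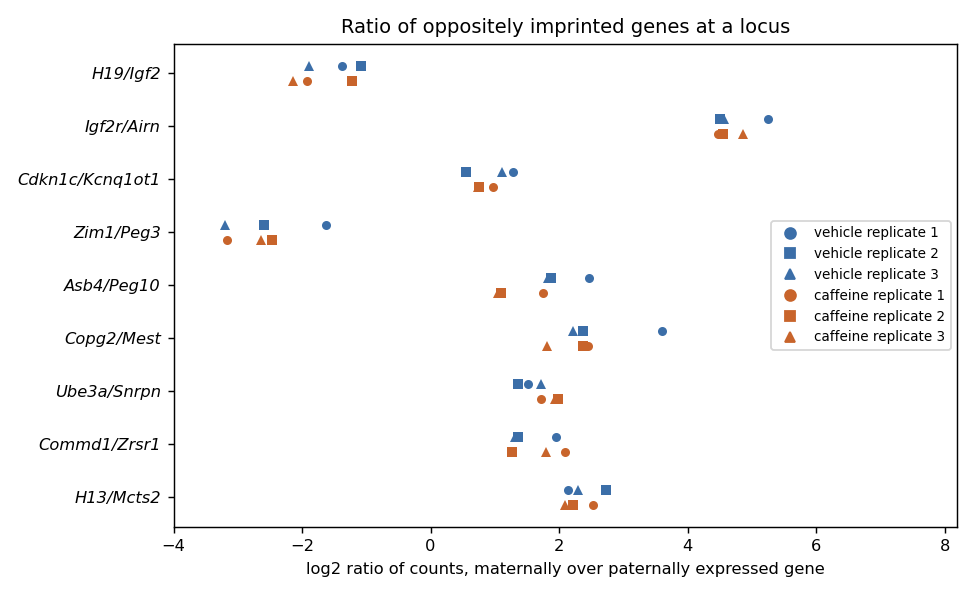
Log2 ratio of the counts of a maternally over a paternally expressed gene at 9 loci, 1 point per heart (blue vehicle, orange caffeine). Caffeine-treated hearts lie below vehicle hearts for Asb4/Peg10, at 1.06 to 1.75 against 1.83 to 2.47, and overlap with them at the other 8 loci.

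The 13 members below the floor are known by their counts. Nnat, a small membrane proteolipid whose gene lies inside Blcap on chromosome 2 (157560078 to 157562522), had 18, 25 and 8 counts in the vehicle hearts and 5, 7 and 2 in the caffeine-treated hearts. On the CPM scale these were 1.76, 2.37 and 0.810 against 0.700, 0.790 and 0.235, so the treatments did not overlap but the nearest hearts were 1 raw count apart. Of the 9315 genes with a count below the floor, 6.40% did not overlap and 2.23% were lower in this way. That group includes genes with too few counts to separate the treatments. Of the genes tested, 7.12% were lower without overlap. In the quasi-likelihood fit without the filter Nnat had a log2 fold change of −1.53 with an adjusted p of 0.0833, which did not pass the threshold, while 1.07% of the genes in that fit passed both thresholds (0.424% in this direction).

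Plagl1, a zinc finger factor that halts the cell cycle, had 24, 17 and 6 counts in the vehicle hearts and 8, 4 and 9 in the caffeine-treated hearts, with overlap. Nap1l5, a nucleosome assembly protein relative, had 10, 22 and 10 against 12, 7 and 4. Ddc, the decarboxylase that makes dopamine and serotonin, had 2, 14 and 10 against 3, 1 and 7. In each of these 3 genes the treatments overlapped. Rian, a noncoding RNA downstream of Meg3, had 8, 13 and 10 against 2, 14 and 8, the transporter gene Slc22a18 had 4, 14 and 4 against 3, 5 and 3, and Mkrn3, a ring finger protein, had 4, 6 and 7 against 1, 8 and 4.

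The other 6 had at most 2 counts in any heart. Dlk1, a Notch-like protein of fetal tissues, had 2 counts in the vehicle and 2 in the caffeine-treated hearts, Mirg had 1 and 1, Rtl1 had 1 and 0, and Phlda2, which limits placental growth, had 0 and 1. Usp29 and Magel2 had 0 counts in all 6 hearts. These are at or under the 3 counts that a count of 0 allows, so no fold change is given.

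**Figure D5:**
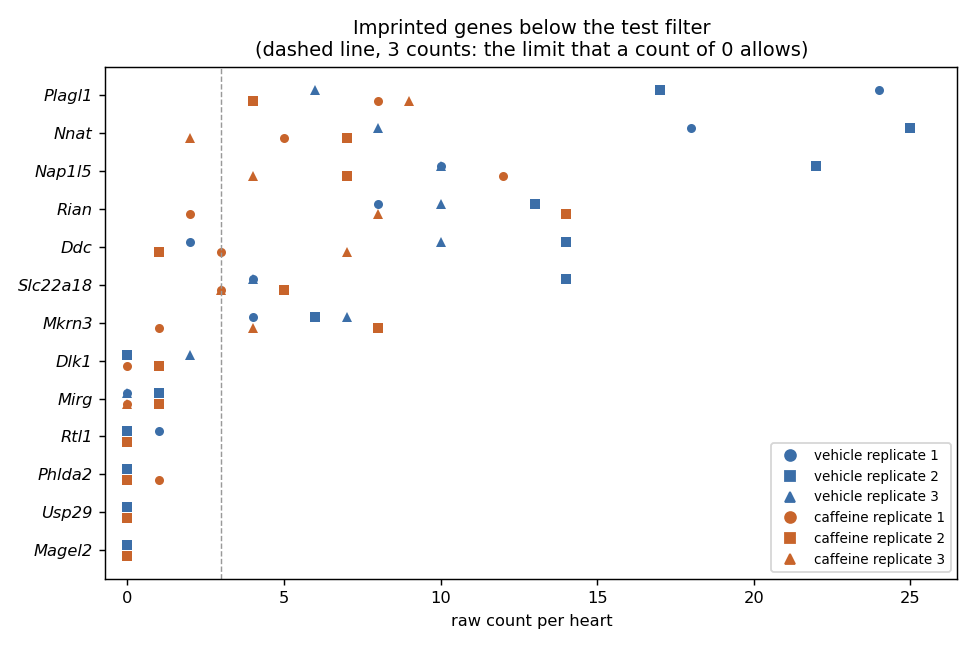
Raw counts per heart of the 13 imprinted genes too low to test (blue vehicle, orange caffeine); the dashed line marks 3 counts. Nnat alone has every caffeine-treated heart (2 to 7 counts) below every vehicle heart (8 to 25), and 6 genes never pass 2 counts.

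Snrpn is known for its expression in brain and heart, and Nnat for that in neurons, endocrine cells and fat cells, so the markers of those cells are given beside them. Of the neural markers, Dbh, the enzyme that makes noradrenaline, read 17.0, 18.8 and 22.0 CPM in the vehicle hearts and 12.6, 9.26 and 6.10 CPM in the caffeine-treated hearts. Every caffeine-treated heart was below every vehicle heart (log2 fold change −1.06, adjusted p = 0.134 in edgeR's quasi-likelihood test). Among the other neural markers given here, Th was at 0 in all hearts, Snap25 was at 0 in all vehicle hearts, and Sox10 had 3 to 7 and Tubb3 1 to 5 counts a heart. Over the 8 neural markers listed, 4 were higher and 3 lower on average in the caffeine-treated hearts. Snap25 and Tubb3 were among the higher, so the lower level of Dbh was not shared by the list. The summed adipocyte markers were 0.608 to 3.13 CPM in the vehicle and 0.113 to 0.586 CPM in the caffeine-treated hearts, from 1 to 32 counts a heart, with 5 of the 5 markers lower on average. The part of these cells in the values of Snrpn and Nnat was not tested.

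None of the genes that keep or read imprints passed the test. Of 28 listed, 22 were tested, of which 5 had a higher and 17 a lower mean in the caffeine-treated hearts (median log2 fold change −0.09). In all genes tested 50.2% were higher and 49.8% lower. None of the 22 passed the thresholds (0.107% of all genes did). In 2 of them, Tet1 and Arid4a, every caffeine-treated heart was below every vehicle heart and in 0 above, where 7.12% and 7.11% of all genes tested were so. None had an unadjusted p below 0.05 in edgeR's quasi-likelihood test, where 8.82% of all genes tested did. With edgeR's exact test (0.718% of all genes), its likelihood ratio test (0.771%), DESeq2 (0.512%) or limma-voom (0.107%) 0 passed. The 3 with the smallest p were Tet3 (21.2 ± 3.80 against 17.1 ± 1.72 CPM, log2 fold change −0.31) and Tet1 (2.91 ± 1.25 against 1.89 ± 0.31 CPM, −0.61), which oxidize methylated cytosine, and Trim28 (55.4 ± 1.13 against 48.1 ± 7.44 CPM, −0.20), the partner through which ZFP57 recruits silencing (SD, n = 3 each). Zfp57 itself was below the floor with 4 to 14 counts a heart.

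Partners of the imprinted genes in IGF signalling, the cell cycle and the sarcoglycan complex were also read from the same fit. Of 21 listed, 18 were tested, 9 higher and 9 lower on average. Of these, 4 had an unadjusted p below 0.05 (8.82% of all genes did) and 0 passed the thresholds (0.107% of all genes did). Igfbp5, which binds IGF1 and IGF2 outside the cell, came closest. It read 235, 232 and 275 CPM in the vehicle hearts and 347, 368 and 404 CPM in the caffeine-treated hearts, without overlap, with a log2 fold change of 0.59 (SE 0.10) and an adjusted p of 0.0584 in edgeR's quasi-likelihood test. It passed the thresholds with edgeR's exact test, its likelihood ratio test and DESeq2, but not with limma-voom. Igfbp6, another binding protein, was at 19.3 ± 3.12 against 29.0 ± 4.54 CPM (log2 fold change 0.58, adjusted p = 0.257 in edgeR's quasi-likelihood test), and Sgca, the alpha-sarcoglycan, at 180 ± 22.1 against 230 ± 14.2 CPM (0.35, adjusted p = 0.302) (SD, n = 3 each). Both were also higher without overlap, as were 7.11% of all genes tested. The fibroblast markers given above were higher in the same hearts, and their part in these values was not tested.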

How the data were processed

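Poly(A) RNA of 6 left ventricles was sequenced as single-end reads. The authors checked the reads with FastQC, aligned them to the mouse genome (mm10, or GRCm38) with TopHat2 and assigned them to genes with HTSeq. What they deposited is the raw counts of each heart, neither normalized nor pooled. Whether reads were counted by strand, and the HTSeq mode, are not given in the sources used here. Reads from overlapping or antisense genes therefore cannot be told apart.

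From the counts, the filterByExpr function of edgeR (a minimum count of 10 and a total of 15) kept 13092 of 43629 genes. TMM scaling and the quasi-likelihood fit of edgeR (glmQLFit, glmQLFTest) followed, with treatment as the only term. Adjusted p-values are Benjamini-Hochberg values over all genes tested. Calls need an adjusted p below 0.05 and a fold change above 1.5, the study's thresholds. The study, which used edgeR without naming the test or the filter, called more genes at these thresholds, Igfbp6 among them. CPM uses the TMM factors. The hearts varied with a biological coefficient of variation of 12.1%. Replicates of a treatment differed by more than counting noise (chi-square per degree of freedom 5.66 to 15.1), so each heart was counted as a sample. Locus ratios used a pseudocount of 0.5 and a two-sided exact permutation test over the 20 labelings of the hearts. Positions, symbols and exon lengths came from GENCODE's mouse annotation of GRCm38, not from the counting annotation, and promoter windows from RefSeq (GRCm38.p6).

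Every member tested was to be named with its log2 fold change and every member below the filter with its counts, and of other lists the genes past the thresholds or the 3 with the smallest p, while markers and genes without overlap were named after their values were seen. Some genes of the neural marker list are not reported here. The members, lists and rules were chosen with earlier results of these data known. Alternatives were edgeR's exact and likelihood ratio tests, DESeq2, limma-voom, other scalings and filters, the replicate number as a block, no fold change threshold, a ratio pseudocount of 2 and each heart left out. Tools were R 4.3.3, edgeR 4.0.16, limma 3.58.1, DESeq2 1.42.0, and, in Python 3.11.15, SciPy 1.17.1, NumPy 2.4.6, Matplotlib 3.10.9 and pandas 2.3.3.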

Additional observations from a re-analysis of the deposited data

How the results depend on the processing

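No imprinted member passed the thresholds under any alternative that was run, and neither did the other imprinted genes or the imprint-keeping factors. Over all genes, 11 were higher and 3 lower in the caffeine-treated hearts, and these counts were 61 and 33 with edgeR's exact test, 63 and 38 with its likelihood ratio test, 39 and 28 with DESeq2 and 145 and 95 without a filter. With library size only, which shifted the median log2 fold change of all genes by −0.08, they were 12 and 15 (44.4% higher, against 78.6%). With 1 heart left out they ranged from 4 to 17 and from 0 to 13, and both were lowest without vehicle replicate 2 (4 and 0) and without caffeine replicate 3 (4 and 0). Of the IGF and growth partners 1, Igfbp5, passed with the exact test, the likelihood ratio test and DESeq2, and 0 to 1 passed with 1 heart left out (1 without vehicle replicate 3). The causes were not tested.

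No pairing by replicate number was seen. Same-numbered hearts deviated from their group means with r of 0.045, −0.030 and −0.038 across genes, and differently numbered hearts with −0.083 to 0.12. With 3 hearts per treatment, these values cannot show that no pairing exists. With the replicate number as a block, 29 genes were higher and 11 lower, 0 members and 1 growth partner (Igfbp5) were called, and Snrpn had a log2 fold change of −0.49 (adjusted p = 0.172).

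Of 257 member values under alternatives with all hearts, 250 kept their sign and side of the threshold. With library size only, log2 fold changes turned to −0.055 for Slc22a3, −0.031 for Airn, −0.053 for Grb10, −0.042 for Copg2 and −0.0025 for Ndn, and with limma-voom to −0.041 for Zim1 and 0.0063 for Mcts2. With 1 heart left out the sign of 13 members was not fixed, with ranges of −0.26 to 0.13 for Igf2, −0.051 to 0.12 for Slc22a3, −0.12 to 0.25 for Airn, −0.28 to 0.039 for Kcnq1ot1, −0.82 to 0.19 for Meg3, −0.25 to 0.49 for Zim1, −0.061 to 0.12 for Grb10, −0.0028 to 0.23 for Sgce, −0.030 to 0.10 for Copg2, −0.057 to 0.030 for Blcap, −0.025 to 0.25 for Ndn, −0.058 to 0.029 for Commd1 and −0.21 to 0.15 for Mcts2. Log2 ratio differences ran from −0.27 to 0.10 for Igf2r/Airn, −0.65 to 0.14 for Zim1/Peg3, −0.012 to 0.41 for Commd1/Zrsr1, −0.23 to 0.058 for H13/Mcts2, −0.78 to −0.086 for Copg2/Mest and −0.37 to −0.0045 for Cdkn1c/Kcnq1ot1, and 1 to 2 of the 9 pairs did not overlap. Among members that kept their sign, log2 fold changes ranged most for H19 (−0.76 to −0.0024), Mest (0.21 to 0.75), Peg3 (0.07 to 0.60), Peg10 (0.10 to 0.59), Zrsr1 (−0.40 to −0.016), Asb4 (−0.52 to −0.17) and Cdkn1c (−0.32 to −0.04).

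For the 4 tested below 5 CPM no interval lay within 1.5-fold, and 13 members could not be tested. The design, with 3 hearts against 3, cannot give an exact permutation p below 0.1.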

Other observations

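Imprinted genes outside the 40 members were read from the same fit. Of 40 such genes 22 were tested, 12 higher and 10 lower on average in the caffeine-treated hearts (median log2 fold change 0.07). None passed the thresholds by edgeR's quasi-likelihood (0.107% of all genes tested did), exact (0.718%) or likelihood ratio test (0.771%), DESeq2 (0.512%) or limma-voom (0.107%). At an unadjusted p below 0.05 in the quasi-likelihood test there were 2, where 8.82% of all genes tested were below it. In 5 of the 22 every caffeine-treated heart was above every vehicle heart and in 0 below, where 7.11% and 7.12% of all genes tested were so. These 5, named after their values were seen, were Tnfrsf23, Dcn, Pon2, Tssc4 and Atp10a.

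Tnfrsf23, a decoy receptor of the TNF family beside the Kcnq1 locus, read 6.84, 6.15 and 6.99 CPM in the vehicle hearts and 8.40, 12.2 and 9.38 CPM in the caffeine-treated hearts, with a log2 fold change of 0.59 (SE 0.18) and an adjusted p of 0.324 in edgeR's quasi-likelihood test. Dcn, the matrix proteoglycan decorin made by fibroblasts, read 570, 581 and 505 CPM against 767, 633 and 608 CPM, with a log2 fold change of 0.28 (SE 0.11) and an adjusted p of 0.446 in the same edgeR test. The summed fibroblast markers were higher in the same hearts (1705 to 2039 against 1335 to 1619 CPM), and their part in Dcn was not tested. Kcnq1, the potassium channel gene that holds Kcnq1ot1, was at 38.0 ± 7.51 against 29.7 ± 4.91 CPM (SD, n = 3 each), with overlapping treatments and a log2 fold change of −0.36 (adjusted p = 0.572 in edgeR's quasi-likelihood test).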
